A study of Mus musculus with 138 samples.

Results

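Spry1, Spry2, Spry4, Spred1, Spred2, Dusp6, Etv4, Etv5 and Erf were followed across the sutures of the embryonic mouse skull. The 9 genes were chosen by name, as inhibitors and transcription factors that report on or act below the kinase ERK, out of 55487 genes in the count files. All 9 passed the filter on low counts that left 19768 genes for testing. The embryos were wild type C57BL/6J mice with no transgene or treatment, collected at E16.5 and E18.5, where E is the embryonic day. Laser capture of tissue sections separated the suture mesenchyme (SM), the undifferentiated tissue between bones, from the osteogenic front (OF), the growing bone edge on either side. The captured groups were coronal SM, frontal bone (FR) and parietal bone (PA), frontal SM and FR, lambdoid SM, interparietal bone (IP) and PA, and sagittal SM and PA. With 2 stages this gave 20 groups of 5 embryos each, and 100 libraries. A second library existed for 18 of the coronal samples, and 16 libraries came from complete E18.5 sutures, 4 per suture. Those 16 were normalization controls and were all labelled replicate 1, so the spread among the 4 may be technical only. Droplet single-cell RNA-seq (scRNA-seq) of the coronal suture added 4 libraries of pooled embryos, 2 per stage.

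ERK carries signals from fibroblast growth factor and other receptor tyrosine kinases to the nucleus. Active ERK raises the transcription of its own brakes: the Sprouty proteins (Spry1, Spry2, Spry4) and the Spred proteins (Spred1, Spred2) act on the cascade above ERK, and the phosphatase Dusp6 removes the activating phosphates from ERK itself. The ETS factors Etv4 and Etv5 are transcriptional activators that are induced by fibroblast growth factor signalling and are widely used as readouts of it. Erf is an ETS repressor that active ERK phosphorylates and drives out of the nucleus. In people, a reduced dose of ERF and activating mutations of fibroblast growth factor receptors are known causes of premature suture fusion.

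Total counts of the 100 libraries ran from 7305627 to 34518477, with a median of 23995246.5 in coronal and 10514388 in the other libraries. Mitochondrial genes took a median of 33.8% to 37.9% of counts in the coronal E16.5 groups and 13.5% to 26.4% in the others. The tissue labels were checked with marker lists, averaged over sutures and stages. Of 12 osteoblast markers, 11 were higher in OF, and all 12 proliferation markers were too. Of 9 SM markers, 7 were higher in SM and 1 in OF, and all 10 macrophage markers were higher in SM. The authors had already reported Cd34, Erg, Ets2, Itgb5, Angptl2 and Adamts8 of the SM list as higher in SM from their bulk data. For these markers the outcome was known beforehand, so they are not an independent check. The sutures were separate sets of libraries, so suture and library batch cannot be told apart, and only SM to OF differences are tested between sutures.

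Spred2 and Spred1 were the most abundant of the 9 transcripts per length, and Etv4 was close to absent. Levels were expressed as CPM, counts scaled to a common library size with TMM factors that correct for composition, and for comparison between genes were divided by transcript length in kb. Median CPM per kb over the 100 libraries was 11.99 for Spred2, 11.1 for Spred1, 6.49 for Erf, 4.74 for Etv5, 4.58 for Spry2, 2.54 for Dusp6, 2.498 for Spry4, 1.59 for Spry1 and 0.102 for Etv4. Only Etv4 had libraries with no count, 21 of 100, while the other 8 genes were detected in every library. When the 20 groups were ordered by their median, every pair of neighbours in the order overlapped for each of the 9 genes.

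**Figure D1:**
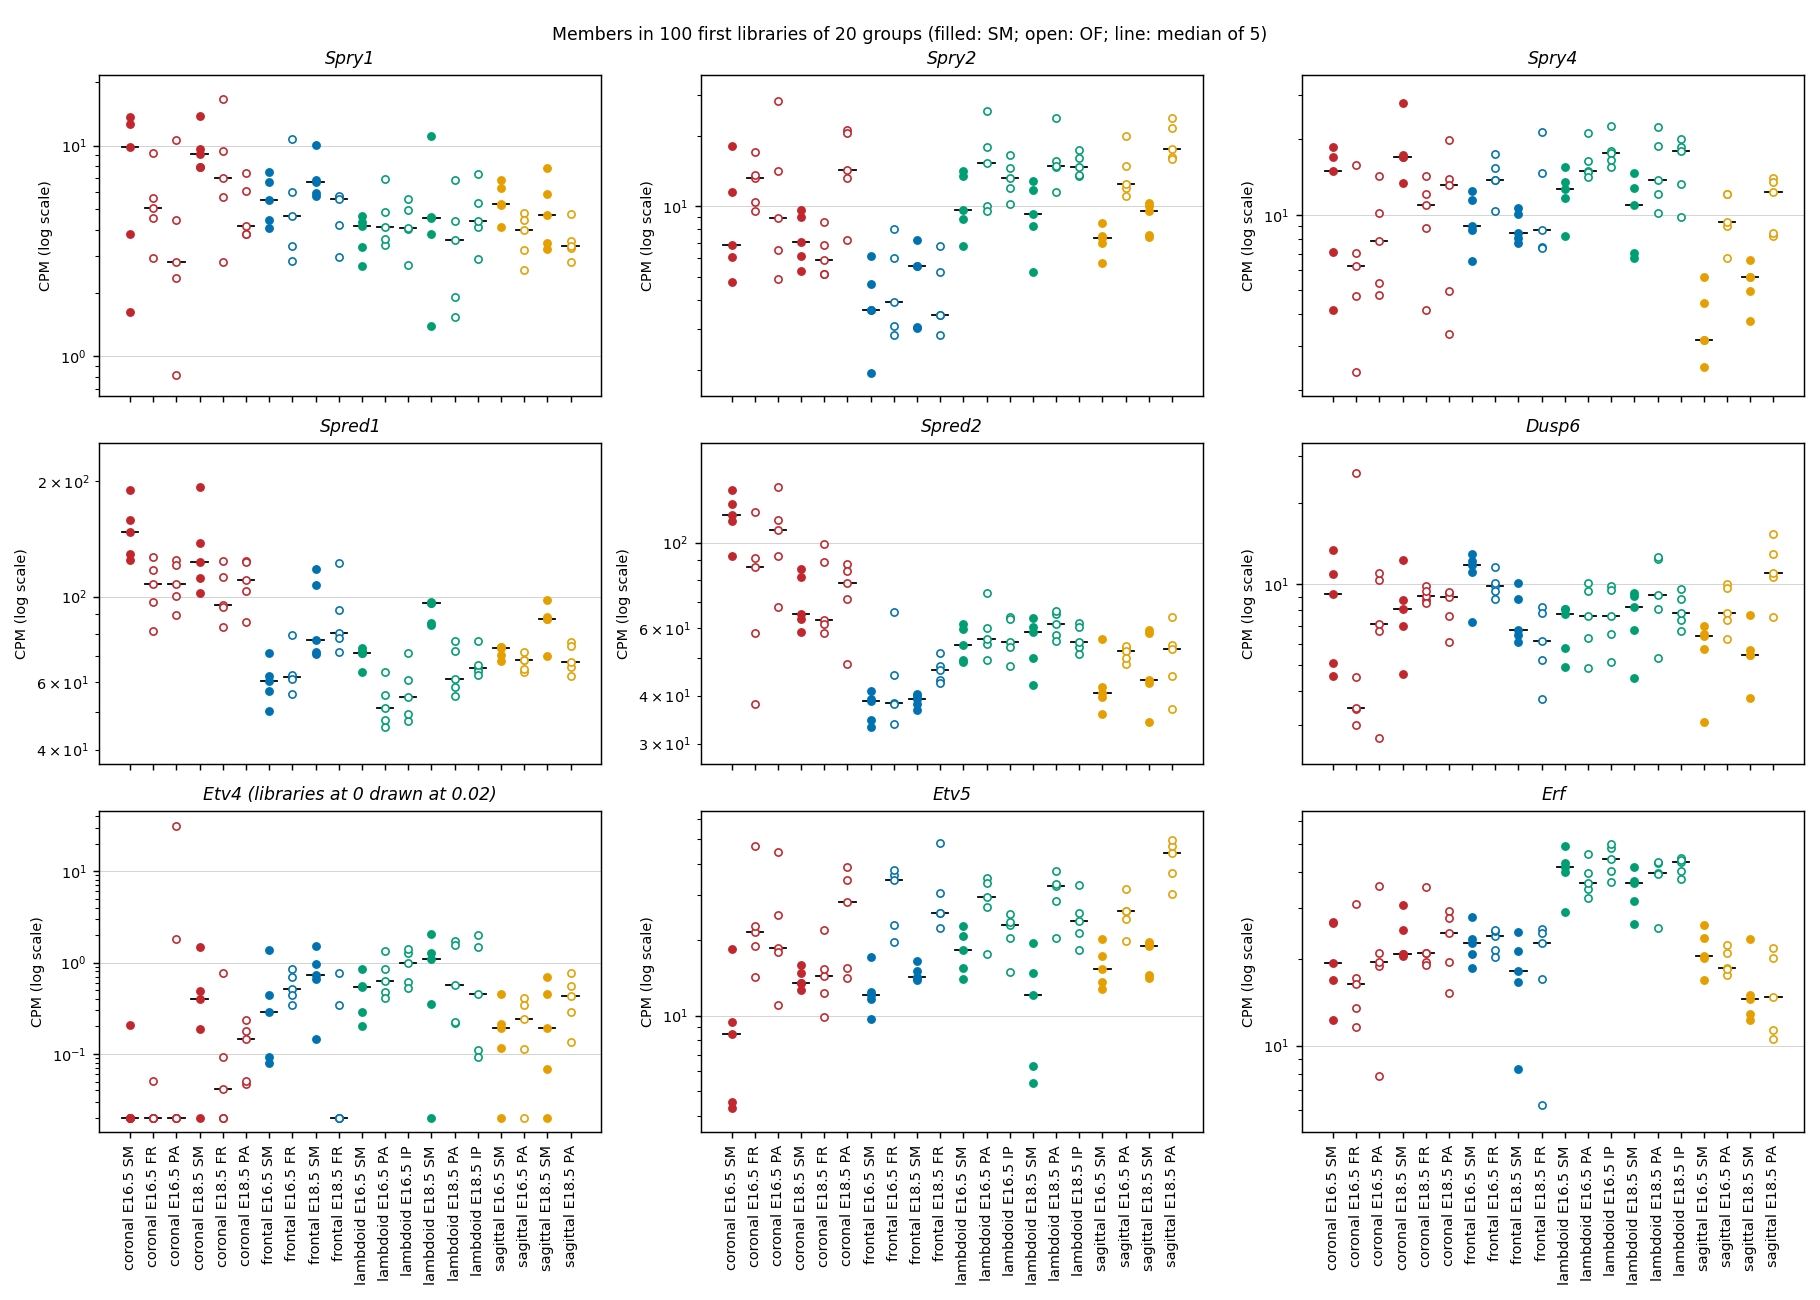
Levels of the 9 genes in the captured libraries, in TMM-scaled CPM, by suture, stage and region, with points for embryos and bars for group medians. Etv5 medians run from 8.48 CPM in coronal E16.5 SM to 44.2 CPM in sagittal E18.5 PA, and Etv4 lies near 0 apart from 1 coronal E16.5 PA library.

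Which of these genes distinguish SM from OF was asked first. Averaged over the 4 sutures and both stages, Etv5, Spry2 and Spry4 were lower in SM and Spred1 and Spry1 were higher. The average differences, on the log2 scale, were -0.98 (SE 0.0968, adjusted p = 1.75e-15) for Etv5, -0.52 (SE 0.107, adjusted p = 1.99e-05) for Spry2 and -0.38 (SE 0.114, adjusted p = 0.00306) for Spry4. They were 0.25 (SE 0.0456, adjusted p = 1.79e-06) for Spred1 and 0.38 (SE 0.138, adjusted p = 0.0146) for Spry1. Members of the Sprouty family stood on both sides. Dusp6 (-0.18, adjusted p = 0.171), Spred2 (-0.09, adjusted p = 0.184), Etv4 (-0.12, adjusted p = 0.869) and Erf (-0.02, adjusted p = 0.895) did not pass the threshold of 0.05. In this average 55.4% of all genes passed, 27.6% higher and 27.8% lower in SM, so 5 of 9 was near the share among all genes. The median of the 9 differences was -0.12, which was the value of Etv4 with its few counts, against 0.04 over all genes. All adjusted p-values, unless another tool is named, are from quasi-likelihood tests in edgeR, adjusted by Benjamini-Hochberg over all genes tested. In such bulk tissue, fewer cells of a type and less RNA per cell cannot be told apart. The Spry1 call was lost (0.31, adjusted p = 0.0632) when embryo 5 of each E18.5 group was left out. Total-count scaling moved the share of called genes that were higher in SM from 49.8% to 61.7%, with the 5 calls kept.

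In the 12 single comparisons of an SM with an adjoining OF, 6 of 108 member tests were higher in SM and 15 lower. Over all genes 19% of tests passed, 8.24% higher and 10.8% lower, with wide differences between comparisons. In coronal E16.5 30.3% of genes passed for FR and 35.6% for PA, in coronal E18.5 3.46% and 18%, and in the frontal suture 7.91% and then 11.1%. In the lambdoid suture 11.2% passed for IP and 23.1% for PA at the earlier stage, and 19.6% and 24.6% at the later. In the sagittal suture it was 17.7% and 25.3%. The calls were unevenly shared: Etv5 had 8, all lower in SM, Spred1 had 5, all higher, Spry2 had 3 and Spry4 had 2, all lower, while Spred2, Dusp6 and Etv4 had 1 each and Spry1 and Erf none. The groups of 5 embryos did not overlap in 4 tests with SM higher and in 11 with SM lower, against 7.85% and 9.7% of tests over all genes.

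**Figure D2:**
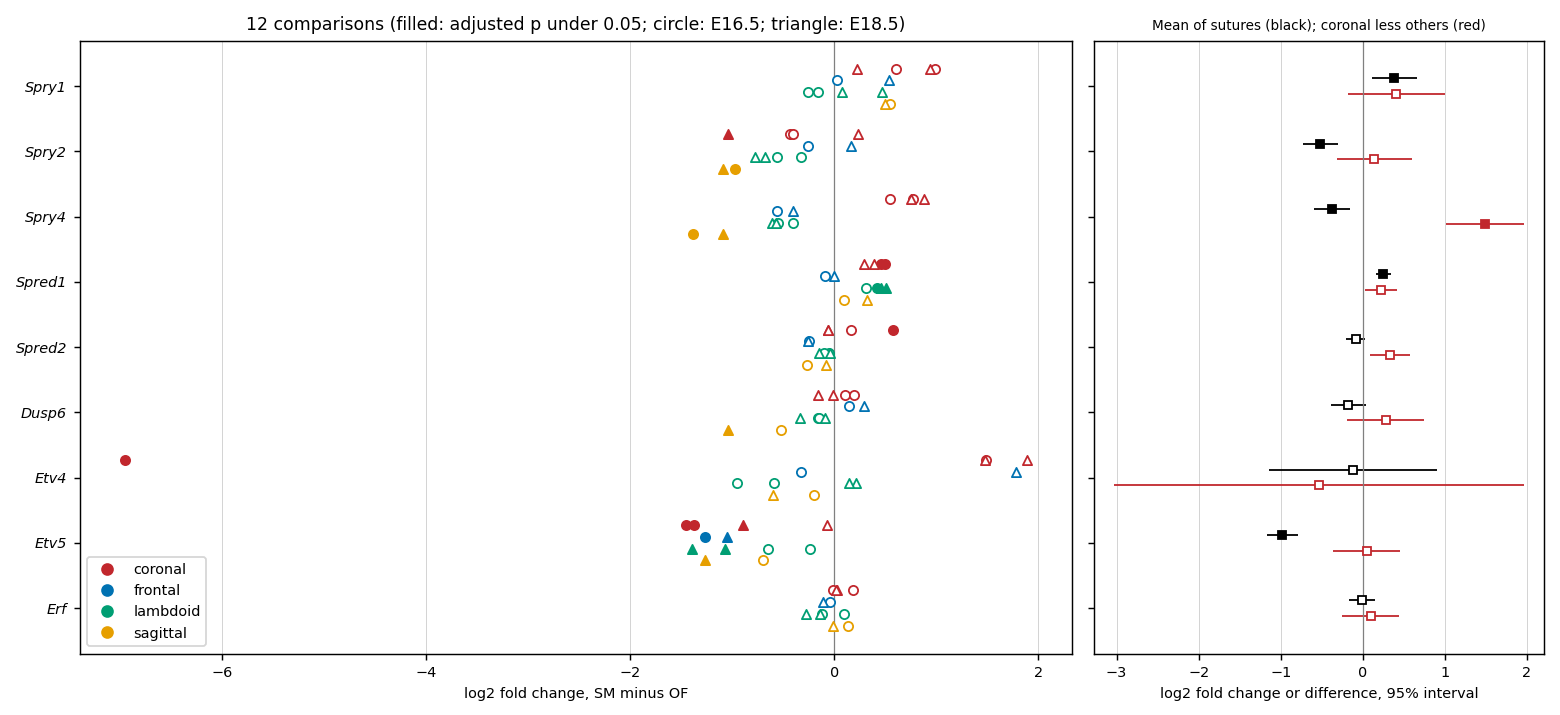
Log2 differences between SM and OF for the 9 genes in the 12 comparisons, with results at an adjusted p under 0.05 set apart from the others. The Etv5 differences are below 0 throughout, and the Erf differences lie between -0.28 and 0.19 with none under 0.05 in adjusted p.

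Etv5 (ENSMUSG00000013089.15; mm10 chr16:22381309-22439719, minus strand) was lower in SM in all 12 comparisons and passed in 8. Over all SM libraries the lowest, median and highest values were 4.29, 14.1 and 22.7 CPM (n = 40), and over all OF libraries 9.88, 25.3 and 49.7 CPM (n = 60). Within embryos, SM was below the paired OF in 56 of 60 pairs. In the sagittal suture at E18.5, PA held 44.2, 46.8, 49.7, 36.9 and 30.3 CPM and SM 19.2, 14.5, 14.1, 18.9 and 19.5 CPM, without overlap. The difference was -1.27 (SE 0.288, adjusted p = 0.000296). In the frontal suture FR held 36.0, 34.4, 22.9, 37.9 and 19.6 CPM at E16.5, against 9.72, 12.4, 12.04, 17.1 and 11.6 CPM in SM. At E18.5 it held 30.5, 25.6, 25.5, 48.4 and 22.2 CPM, against 16.49, 14.2, 15.02, 14.1 and 13.8 CPM. SM was below FR in every embryo at both stages, by -1.26 (adjusted p = 0.00104) and -1.05 (adjusted p = 0.00776). Without embryo 4 of each E18.5 group, which held 48.4 CPM in FR, the second difference was -0.82 (adjusted p = 0.128).

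In the coronal suture the Etv5 difference was called against both bones at E16.5 and against PA only at E18.5. At E16.5, SM held 9.44, 18.4, 4.53, 8.48 and 4.29 CPM, FR 18.8, 47.0, 21.4, 22.6 and 14.3 CPM, and PA 24.95, 44.6, 11.0, 18.47 and 17.9 CPM. Each SM sample was below both OF samples of its embryo, by -1.45 on average for FR (SE 0.291, adjusted p = 5.49e-05) and -1.37 for PA (SE 0.290, adjusted p = 9.85e-05). At E18.5, SM held 15.9, 13.5, 14.8, 12.6 and 13.5 CPM, FR 9.88, 21.9, 12.3, 14.4 and 15.3 CPM, and PA 14.1, 15.5, 38.8, 28.3 and 34.4 CPM. FR then lay on both sides of the SM values and the average difference was -0.07 (adjusted p = 0.963), while SM was below PA on average (-0.90, adjusted p = 0.0176). That PA call was lost when embryo 3, 4 or 5 of each E18.5 group was left out, at adjusted p = 0.125, 0.082 and 0.095, with total-count scaling (-0.60, adjusted p = 0.176), and with each suture fitted alone (-0.87, adjusted p = 0.278). FR was below PA by -0.83 (adjusted p = 0.0698), and with the replicate block by -0.79 (adjusted p = 0.0378). The change between stages of the SM to FR difference was itself tested, at 1.38 (SE 0.405, adjusted p = 0.0222). It was 1.05 (adjusted p = 0.178) when the second coronal libraries replaced the first. Without embryo 1 or embryo 3 of each E18.5 group it was 1.25 (adjusted p = 0.0813) and 1.31 (adjusted p = 0.0575), and with total-count scaling 1.29 (adjusted p = 0.0662).

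In the lambdoid suture at E18.5, Etv5 held 12.1, 5.39, 6.32, 14.7 and 19.4 CPM in SM, 21.2, 23.8, 18.3, 25.4 and 33.1 CPM in IP, and 32.6, 37.5, 28.4, 20.3 and 33.3 CPM in PA. SM was lower than IP by -1.07 (adjusted p = 0.00416) and lower than PA by -1.39 (adjusted p = 0.000116), the latter without overlap. At E16.5 the lambdoid groups were closer, at -0.23 for IP (adjusted p = 0.738) and -0.65 for PA (adjusted p = 0.0954). Sagittal SM at E16.5 was also below PA without passing (-0.69, adjusted p = 0.0838). Fitted with the embryo as a replicate block, the lambdoid E16.5 PA and sagittal E16.5 differences passed, at adjusted p = 0.0439 and 0.0330.

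In OF, where Etv5 was higher, 11 of 12 osteoblast markers and all 12 proliferation markers were also higher on average. The summed level of the osteoblast markers was 6960 to 37095 CPM in SM libraries (median 16975) and 15319 to 63651 CPM in OF libraries (median 32723). In coronal FR, where Etv5 no longer differed from SM at E18.5, the sum had a median of 46719 CPM at the earlier stage and 16905 CPM at the later, against 9460 and 10014 CPM in SM. In the sagittal suture at E16.5, where the Etv5 difference did not pass, the sums overlapped. They were 26850 to 30281 CPM in SM and 24841 to 34291 CPM in PA. The part of the osteoblast or proliferation markers in the Etv5 result was not tested.

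The Sprouty genes Spry1 and Spry2 are paralogues that differed in opposite directions, so the 250 bases before the annotated start of each are given, with every match to the ETS core letters GGAA on either strand in capitals. The sequences are from the RefSeq GRCm38.p6 promoter table. Spry1 lies on chromosome 3, plus strand, with the bases shown at chr3:37639697-37639946. Spry2 lies on chromosome 14, minus strand, with the bases shown at chr14:105896820-105897069.
Spry1: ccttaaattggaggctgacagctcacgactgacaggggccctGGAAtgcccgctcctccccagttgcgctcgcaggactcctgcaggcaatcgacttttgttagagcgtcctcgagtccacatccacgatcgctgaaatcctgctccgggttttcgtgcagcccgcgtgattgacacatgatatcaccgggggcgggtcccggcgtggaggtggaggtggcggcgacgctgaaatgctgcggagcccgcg
Spry2: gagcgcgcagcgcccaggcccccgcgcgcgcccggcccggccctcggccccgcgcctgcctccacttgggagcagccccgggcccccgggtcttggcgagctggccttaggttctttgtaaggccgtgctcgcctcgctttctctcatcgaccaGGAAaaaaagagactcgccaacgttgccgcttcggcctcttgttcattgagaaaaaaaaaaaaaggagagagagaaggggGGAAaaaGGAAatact
Spry1 had 1 match and Spry2 had 3 in these stretches. In windows reaching 50 bases past the start, 300 bases in all, Spry1 had 1 match and Spry2 had 5. Of 32851 such windows of mouse promoters, 96.0% held at least 1 match, with a median of 3 and quartiles of 2 and 5. The longer ETS motif CCGGAAG, which contains the core, was found on either strand in 8.86% of all windows and in none of the 8 windows of the 7 genes with an entry. Such matches describe the letters of the window only.

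Spry2 (ENSMUSG00000022114.5; gene at mm10 chr14:105891947-105896819) was below the paired OF in 46 of 60 embryo pairs. Over all SM libraries it ran from 1.94 to 18.2 CPM (median 7.25) and over OF libraries from 2.81 to 28.1 CPM (median 13.2). In the sagittal suture, PA held 20.05, 14.9, 11.1, 12.04 and 12.4 CPM at E16.5 and SM 5.71, 8.50, 7.30, 6.98 and 7.47 CPM. At E18.5 PA held 23.9, 21.6, 16.2, 17.6 and 15.97 CPM and SM 10.3, 7.55, 10.1, 9.56 and 7.37 CPM. Neither stage showed any overlap, and the differences were -0.97 (adjusted p = 0.0220) and -1.09 (adjusted p = 0.00621). Without embryo 1 of each E16.5 group the first became -0.76 (adjusted p = 0.124). In these E16.5 groups the osteoblast marker sums overlapped, as given above. Other sums were higher in PA without overlap, at 241 to 289 CPM against 58.0 to 72.3 CPM for markers of Mmp13 osteoblasts and 2409 to 2952 CPM against 1331 to 1539 CPM for proliferation markers. The part of these cells in the Spry2 result was not tested. In the lambdoid suture at E18.5 every SM library was below every IP library. Neither OF passed there with the sutures fitted together. With each suture fitted alone both passed, at -0.64 for IP (adjusted p = 0.0467) and -0.73 for PA (adjusted p = 0.0194).

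In the coronal suture at E18.5 Spry2 separated the bones rather than SM from both. PA held 13.2, 21.2, 20.6, 14.3 and 7.19 CPM, FR 8.57, 5.16, 6.82, 5.16 and 5.91 CPM, and SM 7.03, 9.68, 5.30, 9.03 and 6.14 CPM. SM was below PA by -1.04 (adjusted p = 0.0130) and FR was below PA by -1.27 (SE 0.320, adjusted p = 0.00636), each in 5 of 5 embryos. Comparisons of 2 OFs of the same suture had 5.09% of all tests passing, and this one 5.44%. Leaving out embryo 2 or embryo 3 of each E18.5 group lost both calls, at adjusted p = 0.0582 and 0.132 for SM and 0.0748 and 0.0532 for FR. With the second coronal libraries the FR to PA difference was -0.79 (adjusted p = 0.114). The SM to PA difference was -0.75 (adjusted p = 0.0914) with total-count scaling and -1.01 (adjusted p = 0.210) with each suture fitted alone. The osteoblast marker sum was also highest in PA, with medians of 10014 CPM in SM, 16905 CPM in FR and 33278 CPM in PA. The endothelial marker sum was 165 to 386 CPM in FR and 55.9 to 91.3 CPM in PA. The part of either in the result was not tested.

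Spry4 (ENSMUSG00000024427.7) was the gene whose SM to OF difference depended on the suture. In the sagittal suture it was lower in SM: at E16.5 SM held 4.43, 3.17, 3.16, 5.66 and 2.47 CPM and PA 6.74, 9.04, 12.1, 12.1 and 9.36 CPM. At E18.5 the values were 5.65, 3.78, 5.66, 4.94 and 6.61 CPM in SM and 8.21, 14.1, 13.6, 12.3 and 8.45 CPM in PA. Every SM library was below every PA library at both stages, with differences of -1.38 (SE 0.351, adjusted p = 0.00187) and -1.09 (SE 0.346, adjusted p = 0.0123). The second was -0.88 (adjusted p = 0.0857) without embryo 2 of each E18.5 group. In the lambdoid and frontal sutures the Spry4 levels were also mostly higher in OF. At E16.5 lambdoid IP ran from 15.5 to 22.7 CPM and SM from 8.20 to 15.5 CPM. No frontal or lambdoid comparison passed, except lambdoid E18.5 SM below IP with each suture fitted alone (-0.58, adjusted p = 0.0486).

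Coronal SM went the other way. At E18.5 Spry4 held 17.4, 27.9, 17.1, 17.1 and 13.3 CPM in SM, 8.87, 4.16, 14.3, 12.1 and 11.0 CPM in FR, and 3.35, 4.98, 19.8, 13.9 and 13.2 CPM in PA. At E16.5 it held 14.997, 16.9, 18.7, 7.09 and 4.17 CPM in SM, 4.72, 7.06, 2.37, 6.27 and 15.9 CPM in FR, and 5.36, 14.3, 10.2, 7.83 and 4.77 CPM in PA. The ranges overlapped in all 4 coronal comparisons. By edgeR with TMM factors and all first libraries none passed by itself, with differences of 0.55 to 0.88 and adjusted p from 0.0748 to 0.207. With total-count scaling FR at E16.5 (1.11, adjusted p = 0.0127) and PA at E18.5 (1.04, adjusted p = 0.0264) passed. By limma-voom 3 of the 4 passed, FR at E16.5 (0.92, adjusted p = 0.0461) and at E18.5 (0.95, adjusted p = 0.0215) and PA at E18.5 (1.00, adjusted p = 0.00496). Leaving out embryo 5 of each E16.5 group, the FR difference was 1.479 (adjusted p = 0.000912), and leaving out embryo 3 of each E18.5 group, the PA difference was 1.10 (adjusted p = 0.0413). The coronal SM to OF difference less that of the other 3 sutures did pass, at 1.49 (SE 0.242, adjusted p = 1.32e-06), a 2.80-fold ratio of ratios. Of all genes, 21.3% passed in this contrast and 12.8% were higher, and Spry4 was the only one of the 9 to pass. It passed in all 19 alternatives run, with values from 1.26 to 1.66.

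The second coronal libraries, made from 3 embryos per group, were also read for Spry4. At E18.5 they held 16.1, 17.3 and 15.9 CPM in SM, 6.72, 11.5 and 8.90 CPM in FR, and 3.55, 7.87 and 7.88 CPM in PA. At E16.5 they held 17.98, 16.53 and 14.9 CPM in SM, 12.6, 8.30 and 6.45 CPM in FR, and 11.5, 7.59 and 4.87 CPM in PA. Among these second libraries SM was above every OF library at both stages. At E16.5 they cover embryos 1, 2 and 3 only, whose first SM libraries were also above both OF libraries. In the other E16.5 embryos the first SM library was below an OF library, and they had no second library. In place of the first libraries, the second libraries gave 1.06 for FR (adjusted p = 0.0260) and 1.28 for PA (adjusted p = 0.00114) at E18.5, and 0.27 (adjusted p = 0.627) and 0.71 (adjusted p = 0.0754) at E16.5. Those fits kept the first library where there was no second. They carry the labels of the same embryos and regions and are not further embryos. In the libraries of complete E18.5 sutures, Spry4 ran from 12.8 to 20.1 CPM in coronal, 11.1 to 13.05 CPM in lambdoid, 6.73 to 11.4 CPM in sagittal and 5.72 to 10.6 CPM in frontal libraries.

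**Figure D3:**
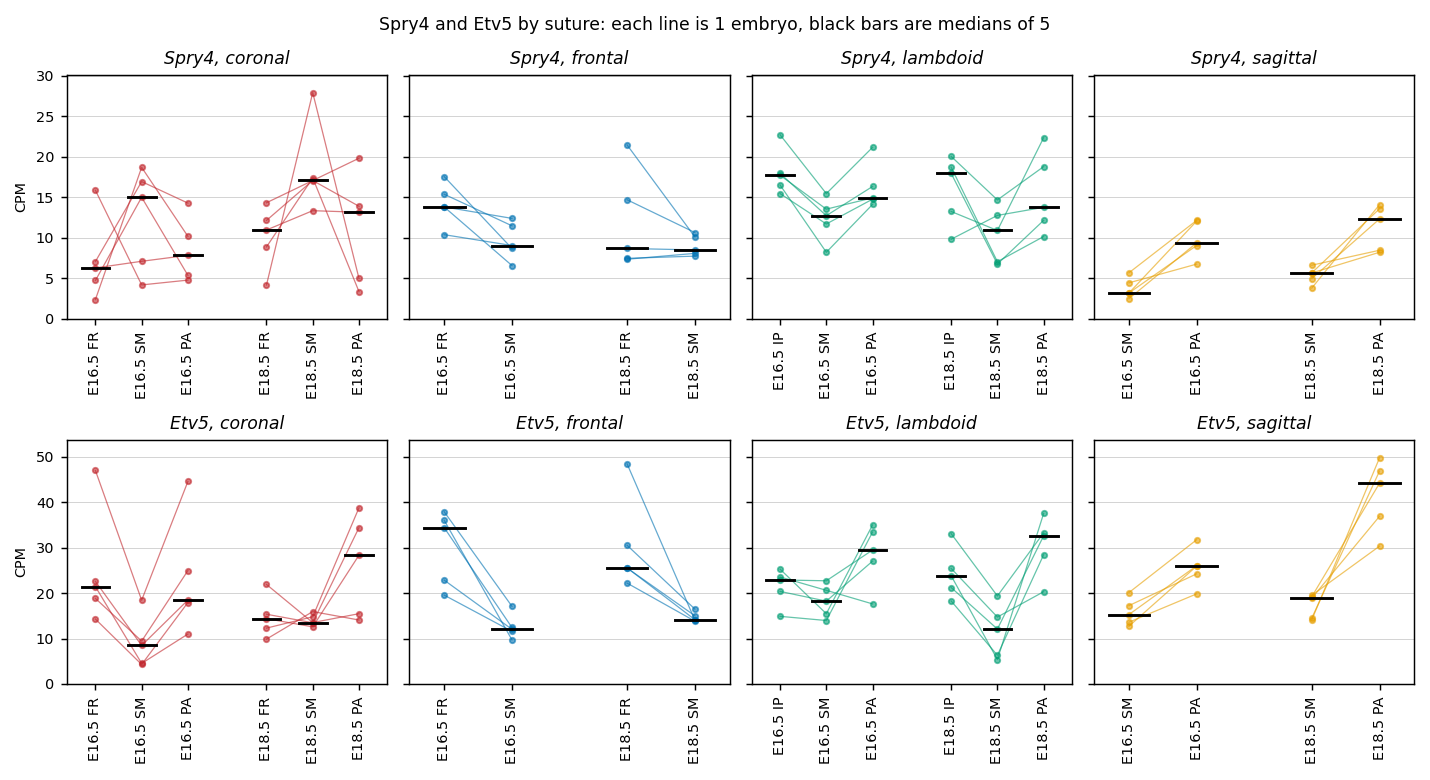
Spry4 and Etv5 in TMM-scaled CPM by suture, stage and region, with lines joining the regions of an embryo and black bars for group medians. Spry4 lies higher in SM than in either OF in 7 of 10 coronal embryos and lower in every sagittal embryo, and Etv5 is lower in SM in 56 of 60 pairs.

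Pericyte and endothelial markers, the cell types in which Spry4 was highest in the single cells described later, were summed in the same coronal libraries. At E18.5 the pericyte sum ran from 468 to 776 CPM in SM, 681 to 1274 CPM in FR and 555 to 834 CPM in PA, and the endothelial sum from 234 to 304, 165 to 386 and 55.9 to 91.3 CPM. At E16.5 the medians of the pericyte sum were 462 CPM in SM, 295 CPM in FR and 314 CPM in PA. Those of the endothelial sum were 286, 169 and 234 CPM, in that order. The ranges of both sums overlapped between SM and each OF at E16.5. The part of either cell type in the Spry4 result was not tested.

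Spry1 (ENSMUSG00000037211.12; gene at mm10 chr3:37639947-37644598) was the Sprouty gene with the higher average in SM, above the paired OF in 41 of 60 embryo pairs. SM libraries ran from 1.39 to 13.9 CPM (median 5.64) and OF libraries from 0.812 to 16.7 CPM (median 4.31). In the coronal suture at E18.5, SM held 7.92, 13.9, 9.17, 7.94 and 9.65 CPM and PA 4.16, 6.08, 3.79, 3.82 and 7.42 CPM, without overlap. That difference was 0.94 with adjusted p = 0.111. The endothelial marker sum was also higher in SM of these groups without overlap, at 234 to 304 CPM against 55.9 to 91.3 CPM in PA, and its part in the difference was not tested. By edgeR with TMM factors none of the 12 Spry1 comparisons passed, and 2 had an unadjusted p under 0.05. DESeq2 called coronal E16.5 SM above PA (1.04, adjusted p = 0.0294), and limma-voom called that one (1.03, adjusted p = 0.0446) and coronal E18.5 SM above PA (0.93, adjusted p = 0.0302). The E16.5 difference also passed in edgeR with RLE factors (1.04, adjusted p = 0.0434), with total-count scaling (1.16, adjusted p = 0.0220) and with the second coronal libraries (1.64, adjusted p = 0.00685). That last fit kept the first library where there was no second. Among the second E16.5 libraries alone SM and PA overlapped, with medians of 2.11 CPM in SM and 3.17 CPM in PA. There SM was above PA in embryos 1 and 2 and below it in embryo 3. The SM values of the first coronal E16.5 libraries were widely spread, at 1.62, 3.81, 9.85, 12.7 and 13.7 CPM. In embryos 1, 2 and 3 the first SM library was below PA, which held 2.38, 4.49 and 10.7 CPM with all bulk libraries scaled together. Only in embryos 4 and 5 was SM above PA. The average difference was 0.99 (adjusted p = 0.0560). It was 1.13 to 1.62, with adjusted p of 0.00378 to 0.0406, when embryo 1, 2 or 3 of each E16.5 group was left out.

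Spred1 (ENSMUSG00000027351.14; mm10 chr2:117121374-117182279, plus strand) was above the paired OF in 50 of 60 embryo pairs, with small differences. In the coronal suture at E16.5, SM held 147, 125, 129, 190.04 and 158 CPM, FR 108, 96.7, 117, 81.5 and 127 CPM, and PA 89.7, 108, 124, 101 and 121 CPM. SM was higher in all 5 embryos, by 0.50 for FR (adjusted p = 0.00354) and 0.46 for PA (adjusted p = 0.00548), and did not overlap with PA. Without embryo 4 of each E16.5 group both calls were lost, at 0.32 (adjusted p = 0.0924) and 0.36 (adjusted p = 0.0559), and with each suture fitted alone (adjusted p = 0.0868 and 0.0800). In the lambdoid suture at E18.5, SM held 85.3, 96.1, 97.1, 96.4 and 84.6 CPM, IP 65.4, 63.9, 62.5, 76.8 and 66.5 CPM, and PA 58.3, 55.2, 61.1, 72.2 and 76.6 CPM. SM lay above every IP and PA library, by 0.46 (adjusted p = 0.0114) and 0.51 (adjusted p = 0.00349). Sums of dura mater markers were 628 to 722 CPM in these SM libraries and 132 to 286 CPM in OF, those of chondrocyte markers 344 to 479 and 119 to 171 CPM, and those of macrophage markers 200.8 to 361 and 146 to 217 CPM. Their part in the Spred1 result was not tested. The IP call was lost (0.41, adjusted p = 0.0583) without embryo 3 of each E18.5 group. Lambdoid E16.5 SM was above PA by 0.42 (adjusted p = 0.0193), and by 0.38 (adjusted p = 0.0778) without embryo 5 of each E16.5 group. That call was also lost by limma-voom (adjusted p = 0.0621). Its transcript also rose with stage, as given with the stages.

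Spred2 (ENSMUSG00000045671.17; mm10 chr11:19924375-20024026, plus strand), a close relative with the same role as an inhibitor, passed against OF in 1 comparison. In coronal E16.5, SM held 114, 92.3, 137, 126 and 118 CPM and FR 91.0, 86.6, 38.1, 58.2 and 119.9 CPM. The difference of 0.58 (adjusted p = 0.00713) was 0.35 (adjusted p = 0.135) without embryo 3 and 0.47 (adjusted p = 0.0543) without embryo 4 of each E16.5 group. Its call was also lost with the second coronal libraries (0.53, adjusted p = 0.145) and with each suture fitted alone (0.55, adjusted p = 0.137). SM was higher in 25 and lower in 35 of 60 embryo pairs. In the frontal suture at E18.5 every SM library was below every FR library, though the difference did not pass. In the contrast of the coronal against the other sutures Spred2 stood at 0.33 with an adjusted p of 0.050022, just above the threshold, and with the replicate block at 0.37 (adjusted p = 0.0188). It was 0.67 (adjusted p = 0.00447) with the second coronal libraries and 0.43 (adjusted p = 0.00929) with total-count scaling.

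Dusp6 (ENSMUSG00000019960.8; mm10 chr10:99263231-99267489, plus strand), the phosphatase, was lower in SM of the sagittal suture at E18.5, with 5.45, 5.70, 7.72, 3.77 and 5.46 CPM against 10.6, 11.05, 12.999, 15.4 and 7.58 CPM in PA. SM was lower in 5 of 5 embryos although the ranges overlapped, and the difference was -1.04 (SE 0.336, adjusted p = 0.0142). It was -0.82 (adjusted p = 0.124) without embryo 4 of each E18.5 group. Etv5, Spry2, Spry4 and Dusp6 were thus all lower in sagittal SM at E18.5, where 14.5% of all genes were lower. The osteoblast marker sum there was 27545 to 37095 CPM in SM and 46221 to 63651 CPM in PA. Sums of proliferation markers, at 666 to 913 CPM against 1745 to 2433 CPM, and of Mmp13 osteoblast markers, at 67.1 to 86.1 CPM against 256 to 418 CPM, did not overlap either. Their part in the 4 calls was not tested. A coronal E16.5 FR library, that of embryo 3, held 25.9 CPM of Dusp6 against 2.99 to 4.51 CPM in the other 4. Without embryo 3 of each E16.5 group, SM was above FR by 1.24 (adjusted p = 0.00183), and FR was lower at E16.5 than at E18.5 (1.34, adjusted p = 0.000709). With all libraries the second of these was 0.18 (adjusted p = 0.731) by edgeR and 0.81 (adjusted p = 0.0309) by limma-voom. The second coronal libraries held 10.7 to 23.5 CPM of Dusp6 in FR at E16.5 and 7.63 to 18.8 CPM at E18.5. With them the SM to FR difference at E16.5 was 0.21 (adjusted p = 0.723), the FR change -0.21 (adjusted p = 0.741) and the SM change -0.94 (adjusted p = 0.0426).

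Etv4 (ENSMUSG00000017724.14; mm10 chr11:101769742-101785371, minus strand) had too few counts for its fold changes to be read. In coronal E16.5 PA the 5 libraries had 702, 44, 0, 0 and 0 counts, in FR 0, 0, 0, 1 and 0, and in SM 0, 0, 5, 0 and 0. The fit called SM and FR lower than PA there (adjusted p = 3.62e-05 and 9.15e-05, with 14.4% of all genes passing between FR and PA). Nearly all of the PA counts were in 1 library. Second libraries of the first 2 of those PA embryos held 0 counts. When only the library with 702 counts was left out, a setting added after the data were seen, the differences were -3.11 for SM (adjusted p = 0.0294) and -4.60 for FR (adjusted p = 0.0110), against a PA group with counts in 1 library. Without embryo 1 of each E16.5 group the SM call was lost (adjusted p = 0.0783), with the replicate block too (adjusted p = 0.0627), and by limma-voom (adjusted p = 0.0588 for SM and 0.0880 for FR). At E18.5 the counts were 0, 9, 37, 4 and 11 in coronal SM, 1, 4, 3, 1 and 6 in PA, and 18, 0, 2, 0 and 1 in FR. From these counts the fit called coronal SM higher (adjusted p = 0.0375) and PA lower (adjusted p = 0.000829) at E18.5 than at E16.5. The PA call was lost (adjusted p = 0.277) without embryo 1 of each E16.5 group, and with the second coronal libraries the PA difference was 3.82 in the other direction (adjusted p = 0.0633). The SM call was lost when any of 6 embryo sets was left out, with adjusted p of 0.0514 to 0.162.

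Erf (ENSMUSG00000040857.15; mm10 chr7:25242561-25250761, minus strand), the repressor, was not called between SM and OF in any suture. Its 12 differences lay between -0.28 and 0.19, and none passed by edgeR, DESeq2 or limma-voom. None had an unadjusted p under 0.05 by edgeR. In simulated data a single comparison called 21 of 200 genes changed 1.5-fold. An uncalled comparison therefore does not exclude a difference of that size. SM was higher in 29 and lower in 31 of 60 embryo pairs, and the average difference was -0.02 with a 95% interval of -0.17 to 0.14. SM libraries ran from 8.31 to 49.2 CPM (median 23.0) and OF libraries from 6.25 to 49.9 CPM (median 24.3). Its group medians were set apart by suture: the 6 lambdoid groups had medians of 36.5 to 44.2 CPM, and the 14 other groups 14.5 to 24.5 CPM. In the complete E18.5 sutures this order was not seen, with 14.2 to 27.1 CPM in lambdoid, 15.9 to 24.01 CPM in frontal, 22.7 to 29.2 CPM in coronal and 23.1 to 26.98 CPM in sagittal libraries. No test between sutures was made. In the captured libraries suture and library batch cannot be told apart, and the complete sutures were labelled without separate replicates.

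The same genes were then compared between the stages. In the 10 comparisons of E18.5 with E16.5, 3 of 90 member tests were higher at E18.5 and 5 lower, against 4.43% and 4.14% of tests over all genes. Groups did not overlap in 1 test with E18.5 higher and in 3 with E18.5 lower, against 3.61% and 3.56% of all tests. Most of the background came from the coronal suture, where 27.1% of genes passed in SM, 24.4% in FR and 20.6% in PA, against 2.33% in frontal SM and 4.34% in frontal FR. Spred1 rose in the average of the 4 SMs, by 0.26 (SE 0.0691, adjusted p = 0.00553), where 11.1% of all genes passed, and in the average OF by 0.19 (SE 0.0599, adjusted p = 0.0238), where 12.2% passed. No other of the 9 genes passed in either average. The SM call was lost (0.18, adjusted p = 0.0917) without embryo 2 of each E18.5 group. The OF call was lost when any of 4 embryo sets was left out, with adjusted p of 0.0505 to 0.107, and with the second coronal libraries (0.22, adjusted p = 0.0606).

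Among single groups, Spred1 was called higher at E18.5 in frontal SM and FR. At E16.5 SM held 71.4, 60.3, 50.4, 62.2 and 56.7 CPM, and at E18.5 it held 77.0, 107.5, 118, 71.9 and 70.8 CPM. FR held 79.3, 61.8, 62.5, 55.7 and 61.1 CPM and then 71.97, 92.5, 80.6, 78.2 and 123 CPM. The ranges of the stages overlapped in both regions. The rises were 0.56 (adjusted p = 0.0105) and 0.48 (adjusted p = 0.0297). The first became 0.44 (adjusted p = 0.151) without embryo 3 of each E18.5 group and was lost in 3 of the sets with an embryo left out, and the second became 0.33 (adjusted p = 0.322) without embryo 5 and was lost in 6. Both were lost with total-count scaling, at 0.35 (adjusted p = 0.119) and 0.25 (adjusted p = 0.313), and by limma-voom (adjusted p = 0.0650 and 0.0994). The libraries with the highest Spred1 also had the highest mitochondrial share of their group, 33.5% in SM embryo 3 against 21.5% to 25.2% in the other 4, and 52.3% in FR embryo 5 against 22.6% to 35.6%. Its part in the result was not tested.

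Spred2 fell in coronal SM, from 114, 92.3, 137, 126 and 118 CPM at E16.5 to 63.4, 65.4, 81.6, 85.6 and 58.6 CPM at E18.5. Every E18.5 library was below every E16.5 library, and the fall was -0.73 (SE 0.173, adjusted p = 0.000789). In coronal PA it fell by -0.50 (adjusted p = 0.0307), which was -0.38 (adjusted p = 0.133) without embryo 2 of each E16.5 group and -0.39 (adjusted p = 0.125) without embryo 1 of each E18.5 group. With the second coronal libraries both falls were lost, at -0.08 (adjusted p = 0.889) and -0.24 (adjusted p = 0.627), and with total-count scaling at -0.35 (adjusted p = 0.123) and -0.24 (adjusted p = 0.338). The change of the SM to FR difference of Spred2 between stages was -0.64 (adjusted p = 0.0904), and -0.73 (adjusted p = 0.0457) with the replicate block. The mitochondrial share of counts, given above, also differed between these stages, and its part in the result was not tested.

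Coronal FR held 2 further falls. Spry2 went from 17.1, 13.2, 13.6, 9.53 and 10.5 CPM to 8.57, 5.16, 6.82, 5.16 and 5.91 CPM without overlap, by -1.01 (SE 0.319, adjusted p = 0.0131). It was -0.44 (adjusted p = 0.380) with the second coronal libraries and -0.55 (adjusted p = 0.190) with total-count scaling. Etv5 in FR went from a median of 21.4 to 14.4 CPM, by -0.75 (adjusted p = 0.0434). That fall was -0.39 (adjusted p = 0.284) without embryo 2 of each E16.5 group, which held 47.0 CPM, -0.35 (adjusted p = 0.489) with the second coronal libraries and -0.38 (adjusted p = 0.363) with total-count scaling. It was also lost when embryo 1, 3, 4 or 5 of each E18.5 group was left out, with adjusted p of 0.0606 to 0.119, and under either other filter on low counts or with each suture fitted alone, with adjusted p of 0.0510 to 0.291. Without embryo 2 of each E16.5 group SM rose between stages by 1.06 for Etv5 (adjusted p = 0.00179) and FR by 0.65 for Erf (adjusted p = 0.0392), neither of which passed with all libraries by edgeR with TMM factors. With all libraries the Etv5 rise passed by limma-voom (0.81, adjusted p = 0.0454) and with total-count scaling (0.90, adjusted p = 0.0235), and the Erf rise with total-count scaling (0.78, adjusted p = 0.0281). In FR the osteoblast marker sum was lower at E18.5, as given with Etv5. The pericyte sum was higher without overlap, at 157 to 526 CPM and then 681 to 1274 CPM, and the mitochondrial share lower, at 30.6% to 52.4% and then 21.5% to 25.3%. The part of these in the FR results was not tested. Averaged over the 4 sutures, the SM to OF difference of none of the 9 genes changed between stages by edgeR, DESeq2 or limma-voom. By edgeR 1 of the 9 had an unadjusted p under 0.05, and after adjustment 0.703% of all genes passed. Among the 6 changes tested within single sutures, where 2.48% of all tests passed, 7.67% for coronal SM to FR and 7.06% for coronal SM to PA, the coronal Etv5 change given above and a coronal SM to PA change of Etv4 passed. The latter was 8.84, and 4.99 (adjusted p = 0.0308) without the library with 702 counts. Its call was lost with the replicate block (adjusted p = 0.0915), by limma-voom (adjusted p = 0.135) and without embryo 1 of each E16.5 group (adjusted p = 0.0618), and with the second coronal libraries the change was -1.75 (adjusted p = 0.713).

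The second coronal libraries also showed how far a single library fixes these levels. Across 18 such pairs of libraries, the median log2 difference of second minus first library was 0.79 for Erf, 0.62 for Dusp6, 0.39 for Etv5, 0.05 for Spry2, -0.11 for Spry4, -0.43 for Spred1, -0.65 for Spry1 and -0.71 for Spred2. Erf was higher in 16 of 18 second libraries and Spred1 in 0 of 18. How the second libraries were made is not given in the sources used here.

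**Figure D4:**
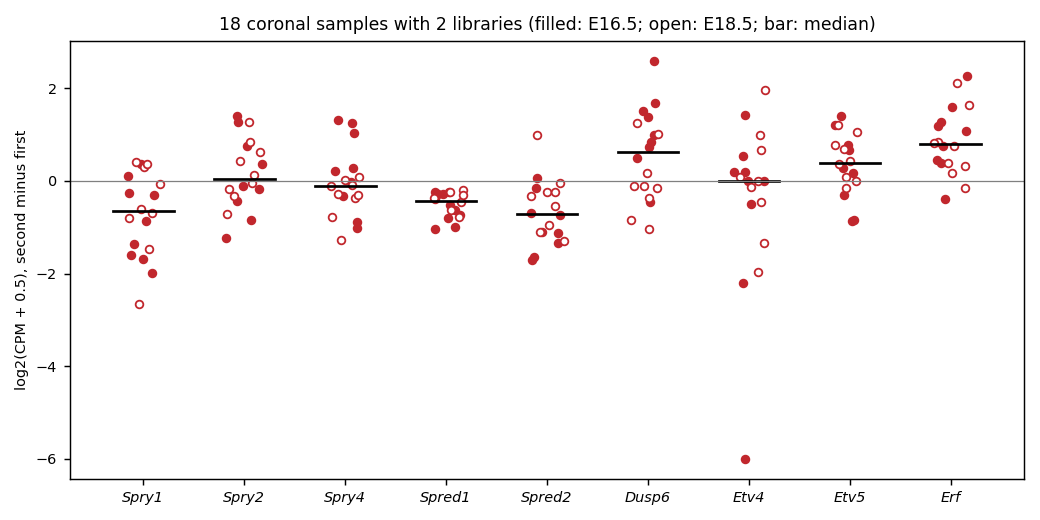
Second minus first library with the same coronal embryo and region label, as the difference of log2(CPM + 0.5), for the 9 genes, with filled points for E16.5, open points for E18.5 and bars for medians of 18 pairs. Spred1 points all lie below 0, and Erf points lie above 0 in 16 of 18.

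In the complete E18.5 sutures, Etv5 had a median of 45.5 CPM in coronal, 31.5 CPM in lambdoid, 21.4 CPM in frontal and 20.2 CPM in sagittal libraries. Dusp6 was at 18.51, 12.2, 13.3 and 10.2 CPM, in that order. Coronal had the highest median for both. In the captured E18.5 groups, scaled together with these libraries, that order was not seen. There sagittal PA had the highest median of both, at 43.9 CPM for Etv5 and 10.9 CPM for Dusp6. The highest coronal medians there were 28.3 CPM for Etv5 in PA and 9.04 CPM for Dusp6 in FR. The titles place the 4 libraries of a suture in 4 control sets, each holding every suture, and the values here are pooled over the sets. No test was made, since the labels do not say whether the 4 libraries of a suture came from separate tissue.

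Other genes of the pathway were counted in the SM to OF average, where 27.6% of all genes were higher and 27.8% lower in SM. Of 15 further ERK feedback and response genes that passed the filter, 5 were higher and 7 lower in SM, with a median of -0.40. Ccnd1 (cyclin D1) was lower in SM in all 12 comparisons, by -1.62 on average (adjusted p = 9.10e-36), with a median of 40.2 CPM in SM and 138 CPM in OF. The immediate early genes Fos (-1.31) and Egr1 (-0.97) were lower too on average, but were called in only 2 and 1 of the 12 comparisons. Il17rd, an inhibitor of fibroblast growth factor signalling also called Sef, was higher in SM, by 0.97 on average and in 9 of 12 comparisons, and lower in 1, with medians of 24.2 and 10.1 CPM. Spred3 was also higher in SM on average (0.88), and in 2 of 12 comparisons. All 12 proliferation markers were higher in OF, and their part in the Ccnd1 value was not tested.

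Of 21 genes of the ERK cascade itself, 7 were higher and 9 lower in SM, with a median of 0.03 against 0.04 over all genes. The receptor adaptor Frs2 was lower in SM in all 12 comparisons (-0.57), with medians of 105 CPM in SM and 172 CPM in OF. Hras (-0.76, called in 4 of 12) and the adaptor Grb2 (-0.44, in 3) were lower in SM on average. The scaffold Ksr1 (0.72, in 1) and the docking protein Gab1 (0.39, in 7) were higher. Of 3 other ETS repressors, Elk3 was higher in SM on average by 0.12 (adjusted p = 0.0189), and in 2 of 12 comparisons. Between stages, averaged over the sutures, 2 of the 15 feedback and response genes rose and 3 fell in SM, and 6 rose and 1 fell in OF, where 11.1% and 12.2% of all genes passed. In the OF average the feedback and response genes that rose included Fos (1.55), Dusp5 (1.43), Ier3 (1.077) and Egr1 (1.00), and Ccnd1 fell by 0.95 on the log2 scale.

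The genes most like each member across the 100 libraries, after centring within each suture and stage, were Hipk1 (r = 0.78), P4ha2 (r = 0.78) and Lbh (r = 0.77) for Etv5, and Marcks (r = 0.71), Scai (r = 0.70) and Dnm3os (r = 0.70) for Spred1. Spry2 was most like Slc38a10 (r = 0.65), Erf most like 1700017B05Rik (r = 0.66), and Spry4 most like Gm47603 (r = 0.56), Vrk1 (r = 0.55) and Nog (r = 0.54). The highest r was 0.54 for Spry1 (with 2610507I01Rik), 0.56 for Spred2 (Psrc1), 0.51 for Dusp6 (Prep) and 0.47 for Etv4 (Gm44957). Among the members themselves the highest r was 0.47 for Spry2 with Etv5, and the lowest -0.42 for Spred1 with Etv5. These values describe libraries that share embryos, region and depth.

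The scRNA-seq libraries of the coronal suture showed which cells held these transcripts. At E18.5, 2412 and 1577 cells passed the filters, with medians of 18476 and 7131 unique molecular identifiers (UMIs) per cell. At E16.5, 466 and 337 cells passed, with 2501 and 2121. Cells were clustered without the 9 genes and named from marker genes. With 2 pooled libraries per stage made with different kits, the stages were not compared, and no test was made. The 2 libraries shared 5 cell barcodes at E18.5 and 1 at E16.5. No doublet caller was run. Intervals are exact Poisson 95% intervals and cover counting error only.

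Dusp6 was highest in endothelial-like cells, at 159 CPM (211 UMIs, interval 138 to 182) in library 1 and 154 CPM (54 UMIs, interval 116 to 200.9) in library 2. Pericyte-like cells held 62.4 and 36.8 CPM, macrophage-like cells 47.0 and 44.1 CPM, and osteoblast-like cells 4.03 and 7.99 CPM of Dusp6. Endothelial-like cells were highest in both libraries. A Dusp6 UMI was found in 87.0% of endothelial-like cells, and in 37.7% when every cell was thinned to 3000 UMIs. The 77 erythroid-like cells, which should lack the gene and came from library 2 alone, had 0 Dusp6 UMIs, which allows up to 3.94 CPM. Median depths were 15928 UMIs in endothelial-like and 9424 in erythroid-like cells, and no cell of either class fell below 3000.

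Spry4 was highest in pericyte-like cells, at 122 CPM (51 UMIs, interval 91.1 to 161) and 92.0 CPM (25 UMIs, interval 59.5 to 136), and next in endothelial-like cells at 51.9 and 57.0 CPM. Osteoblast-like cells held 5.71 and 6.51 CPM of Spry4. The share of cells with a Spry4 UMI was 66.1% in pericyte-like and 46.4% in endothelial-like cells, and after thinning 32.1% and 18.8%, against 1.299% of erythroid-like cells. Spry2 was also highest in pericyte-like cells, at 84.0 and 107 CPM, and Spry1 in endothelial-like cells, at 79.0 and 77.0 CPM. These were small classes, of 56 pericyte-like and 69 endothelial-like cells, against 532 osteoblast-like cells.

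Etv5 was at 25.2 CPM (75 UMIs, interval 19.8 to 31.6) and 20.7 CPM (70 UMIs, interval 16.1 to 26.2) in osteoblast-like cells. It was at 4.05 and 1.70 CPM in the unnamed cluster led by Tppp3, Dpt and Ptx4, and at 10.0 and 13.8 CPM in ectocranial mesenchyme-like cells. Macrophage-like cells held 25.2 and 16.7 CPM of Etv5 and pericyte-like cells 21.6 and 40.5 CPM, so the transcript was not limited to the osteoblast-like cells. An Etv5 UMI was found in 20.3% of osteoblast-like, 33.2% of macrophage-like and 5.19% of erythroid-like cells, and after thinning in 5.64%, 8.31% and 2.60%. The erythroid-like level of Etv5 was 5.26 CPM (4 UMIs), from library 2 alone.

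Erf was found in most classes, at 78.3 and 77.0 CPM in endothelial-like cells and 18.1 and 17.4 CPM in osteoblast-like cells, with 39.3 and 33.4 CPM over all cells of each library. Spred1 was at 61.1 and 72.5 CPM in macrophage-like cells and 36.8 and 39.5 CPM over all cells. Etv4 was near its detection limit with 67 and 17 UMIs in all, or 1.25 and 1.24 CPM. At E16.5, with fewer UMIs, Dusp6 was again highest in endothelial-like cells, at 126 and 110 CPM, with 95.5 and 77.6 CPM in macrophage-like cells. Counting intervals are not given for these levels, so the order of these classes at E16.5 is not settled. Spred1 was at 171 and 171 CPM in E16.5 macrophage-like and 179 and 114 CPM in osteoclast-like cells.

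**Figure D5:**
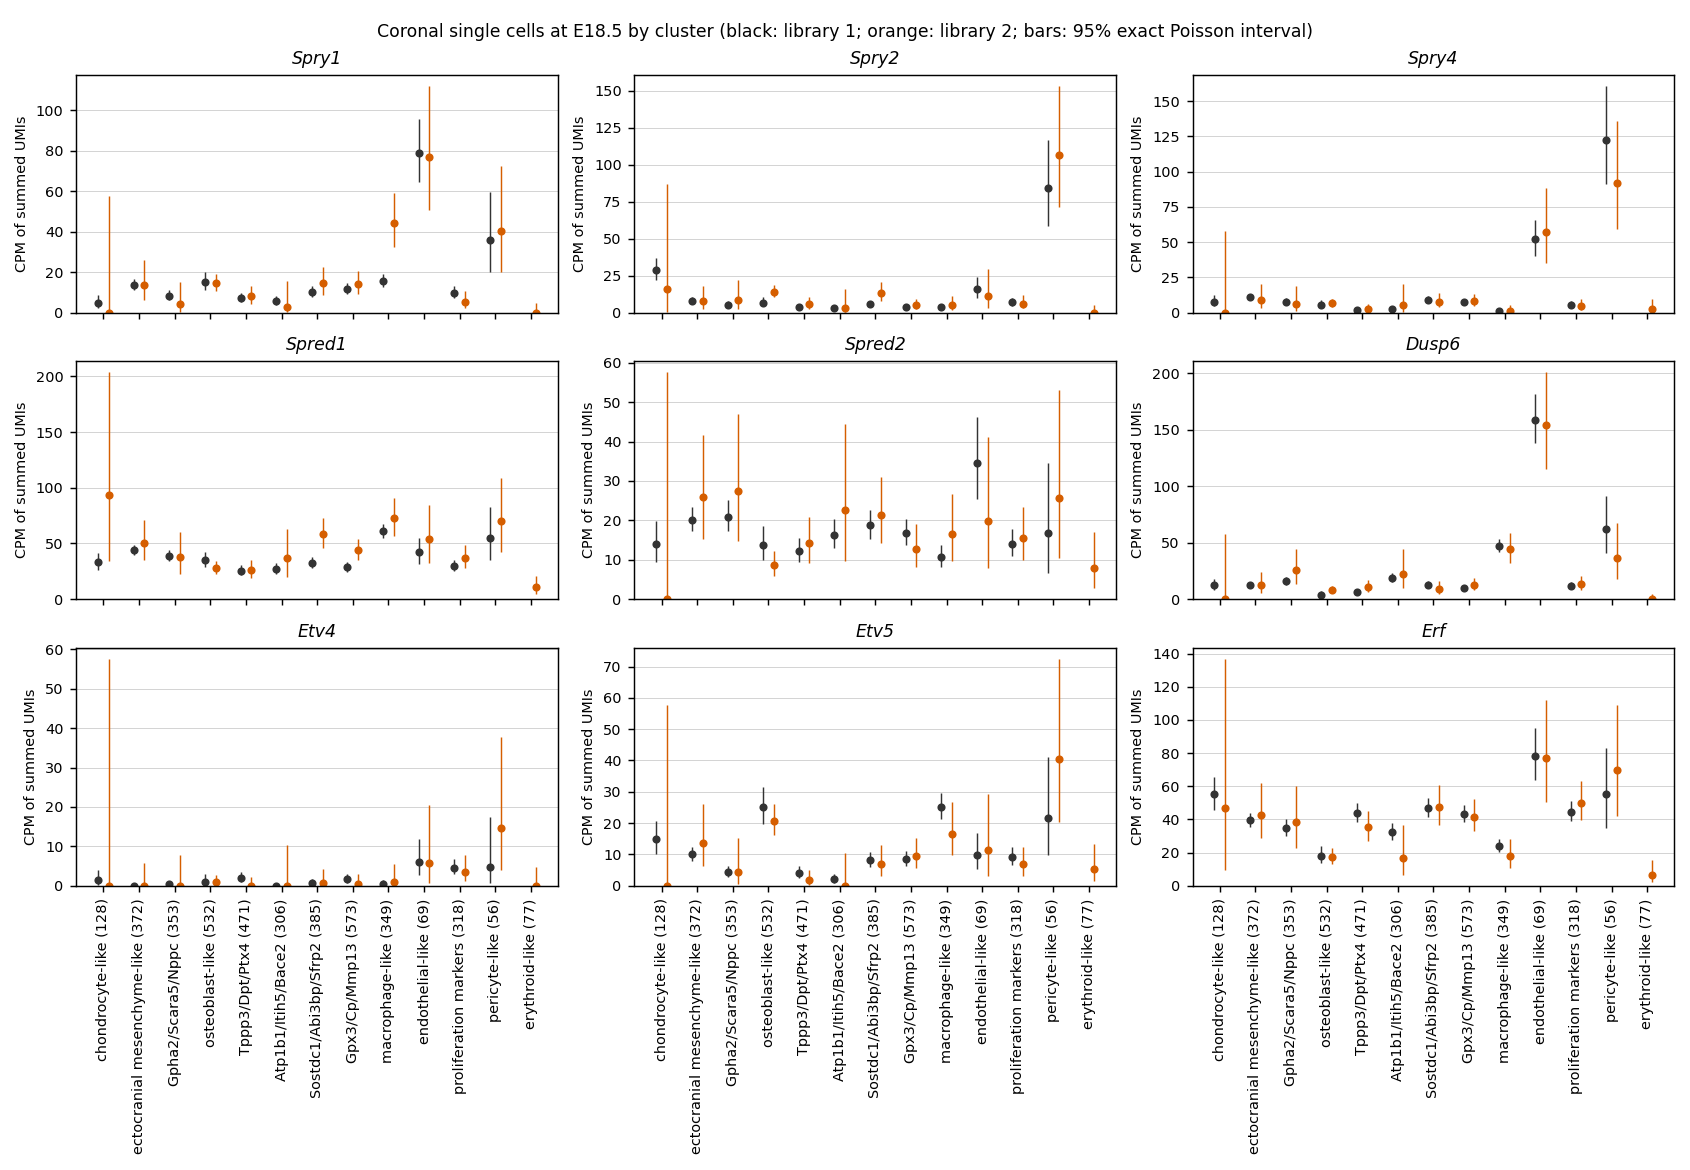
Levels of the 9 genes in cell classes and clusters of the E18.5 coronal scRNA-seq libraries, in CPM of UMIs, as separate points for libraries 1 and 2 with exact Poisson 95% intervals. Dusp6 peaks in endothelial-like cells at 159 and 154 CPM and Spry4 in pericyte-like cells at 122 and 92.0 CPM, and Etv5 lies at 25.2 and 20.7 CPM in osteoblast-like cells.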

How the data were processed

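The deposited values were raw counts per gene from the authors' featureCounts (version 1.6.4) run on STAR (2.5.3a) alignments to mm10, without use of strand. The single-cell files held deposited counts of UMIs from Cell Ranger. Captured tissue had been amplified with Ovation RNA-Seq V2. Symbols were matched for 55394 of 55487 gene IDs. Genes at 1 CPM or more in over 10% of the 100 first libraries were fitted with edgeR (4.0.16) quasi-likelihood tests, TMM factors and one coefficient per group, with adjusted p under 0.05 as a call. Samples of a group are separate embryos, but many share the first part of their litter label, and the tests treat them as independent. The stages of a suture carry different litter labels, so stage and litter cannot be told apart. Embryo numbers pair SM with OF through shared litter labels, and same-embryo deviations had a median correlation of 0.0474 over 60 pairs, with 15 over 0.1. DESeq2 (1.42.0), limma-voom (3.58.1), other scalings and filters, a replicate block, second coronal libraries and leaving out each embryo number were alternatives. One further alternative, without embryo 1 of coronal E16.5 PA, was added after seeing the data. Cells with over 800 genes and within 3 MADs were clustered with scanpy (1.11.5) on 2000 variable genes and 13 components, leaving out the 9 genes. A cluster was named where at least 2 of its top 10 genes by fold were markers of that type, a minimum set after seeing the clusters. Cells were thinned to 3000 UMIs for shares. On simulated counts, the sagittal E18.5 SM to PA test called 129 of 200 genes changed 3-fold and 21 of 200 changed 1.5-fold. Unchanged genes gave 6 false calls. Genes outside the 9 were named as the largest called changes of fixed lists or as the 3 most correlated. The members and lists were chosen with earlier results of these data known.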

Additional observations from a re-analysis of the deposited data

Results flagged for a closer look

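In groups of 5 embryos, 16 of 180 gene and group combinations held a library far from the other 4, where chance gives about 1 in 20. In 14 the library was the highest and in 2 the lowest, and 6 were in coronal E16.5 groups. The highest libraries were Spry1 in frontal E18.5 SM at 10.1 CPM, Spry4 in coronal E18.5 SM at 27.9 CPM, Spred1 in frontal E16.5 FR at 79.3 CPM and in lambdoid E18.5 IP at 76.8 CPM, and Dusp6 in coronal E16.5 FR at 25.9 CPM. Etv5 stood out in coronal E16.5 FR at 47.0 CPM, and Erf in coronal E16.5 FR at 31.0 CPM, coronal E18.5 FR at 35.3 CPM and sagittal E18.5 SM at 23.4 CPM. Etv4, with few counts, did so in frontal E16.5 SM at 1.36 CPM, in coronal E16.5 FR, PA and SM at 0.0502, 31.3 and 0.208 CPM, and in coronal E18.5 FR at 0.760 CPM. The lowest libraries were Spred1 in lambdoid E16.5 SM at 63.8 CPM and Erf in lambdoid E18.5 PA at 25.5 CPM.

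Differences that themselves differed between groups were the change between stages of the coronal SM to FR difference of Etv5 (1.38), that of the coronal SM to PA difference of Etv4 (8.84, and 4.99 with adjusted p = 0.0308 in edgeR without the library with 702 counts), and the SM to OF difference of Spry4 in the coronal suture less the other 3 (1.49).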

How the results depend on the processing

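Of 41 called results for the 9 genes, 14 passed under every alternative run. Over their 641 alternatives, 540 kept direction and call, 97 lost the call and 4 turned direction, and of 4581 alternatives of the 292 other results 82 gained a call and 2 passed in the other direction. The alternatives that ended calls used fewer or other libraries, other scalings, other filters or another model, and beyond this the cause was not tested. Tests higher in SM (6 of 108) numbered 10 by DESeq2, 11 by limma-voom and 14 with total-count scaling. Fitting each suture alone ended 12 calls, total counts 9, the second coronal libraries 9 (and 4 that turned direction), limma-voom 8, no count filter 3 and DESeq2 none. Tests higher at E18.5 (3 of 90) numbered 5 by DESeq2 and 7 with total counts. Tests lower at E18.5 (5) numbered 0 with each suture fitted alone, 3 with no count filter, and 1 with the second coronal libraries or with total counts. With the second coronal libraries 0 genes rose in the OF average, 0 changes between stages were higher, and 0 OF to OF tests were lower. Changes between stages (2 higher, 0 lower) were 1 and 1 by limma-voom, and 1 higher with total counts. Coronal excesses (1) were 2 with filterByExpr, limma-voom or the second libraries and 3 with total counts.

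With the replicate block, the changes between stages were 1 higher and 1 lower and the coronal excesses were 2. The block gained Etv5 in lambdoid E16.5 PA (adjusted p = 0.0439), sagittal E16.5 (0.0330) and coronal E18.5 FR against PA (0.0378), and the 2 Spred2 results given in the report. It lost the Etv4 calls of coronal E16.5 SM against PA (0.0627) and of its change between stages (0.0915), and changed no other call where it was run. Comparisons of a region between stages hold different embryos and have no block.

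Leaving out each embryo number gave 3 to 7 tests higher and 12 to 16 lower in SM, and 1 to 2 higher and 3 lower in the average. It gave 1 to 3 higher and 3 to 5 lower at E18.5, 0 to 2 higher in the SM and 0 to 1 in the OF stage average, 1 to 2 higher and 0 to 1 lower among changes between stages, 1 to 2 coronal excesses, and 1 to 3 lower OF to OF tests.

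Directions turned for Spred1 in coronal FR between stages with total counts (0.43), and for Dusp6 in coronal E16.5 FR against PA without embryo 3 of E16.5 (-0.91, with 0.48 as the highest value on leaving out another embryo). With the second coronal libraries they turned for Etv4 in coronal E16.5 FR against PA (3.19), SM against PA (1.196), PA between stages (3.82) and its change (-1.75), and for Dusp4 in the SM stage average (-0.55). The median SM to OF difference of all genes was 0.04, 0.10 by DESeq2 or RLE scaling and 0.14 with total counts, so calls near 0.1 depend on the scaling. The single-cell levels checked moved by less than the standard deviation between the libraries of the stage under the alternatives run. These were, at E18.5, Etv5 in osteoblast-like, Dusp6 in endothelial-like, Spry2 and Spry4 in pericyte-like cells, and Erf over all cells. Other classes and E16.5 were not checked. The depth of Etv4, and of the small cell classes, limits any statement on them.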
